A study of Mus musculus with 9 samples.

Results

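The genes described here were 45 genes of nucleolar ribosome production, Myc among them, chosen by gene symbol from a table of 55487 genes. All 45 symbols were found in the table, and all 45 were among the 15536 genes that passed the filter on low values and were tested. By role they comprised the transcription factor Myc, 8 genes of rRNA transcription by RNA polymerase I, 4 genes of abundant nucleolar proteins, 4 genes of box C/D and 4 of box H/ACA small nucleolar ribonucleoproteins (snoRNPs), 11 genes of small-subunit and 13 of large-subunit assembly.

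RNA-seq was performed on CD4+ T cells that had been purified by negative selection from spleens of wild-type C57BL/6 mice (Trail-r+/+, female, 6 to 7 weeks old), in 3 groups of 3 libraries. The medium group was cultured without stimulus, and its culture time is not given in the sources used here. The stimulated group received Abs to CD3 (3 µg/ml) and to CD28 (2 µg/ml), which act through the TCR and through a receptor of costimulation, for 24 h. The stimulated plus TRAIL group received the same Abs for 24 h together with TRAIL (10 µg/ml), the tumor necrosis factor family ligand of TRAIL-R. No TRAIL-R-knockout cells and no cells given TRAIL without Abs were analysed here, and how many mice gave cells to a library is not stated. The comparisons ask how stimulation through the TCR changes these transcripts, what the addition of TRAIL changes, and how close stimulated cells with TRAIL remain to unstimulated cells.

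Ribosomes are built in the nucleolus, where RNA polymerase I transcribes the precursor of most rRNA. Small nucleolar RNAs in snoRNPs guide the methylation (box C/D) and pseudouridylation (box H/ACA) of this precursor, and assembly factors, helicases and nucleases fold and cut it into the small and the large subunit. Resting T cells are small and make few ribosomes, and activated T cells enlarge their nucleoli before they divide. MYC binds DNA as a dimer with MAX and is known as an activator of many ribosome biogenesis genes.

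Values are in TPM (transcripts scaled to a fixed total), which correct for the length of a gene and sum to 1000003 per library in the deposited table, so levels can be set beside each other between genes. Read totals are not kept by this unit, so the spread of 3 libraries per group is the measure of error, and nothing says whether these came from separate cultures, so p-values cover only the spread between libraries, which may be technical. Gene loci are those of the table, on mouse GRCm38. Each library had 13691 to 14909 genes at 1 TPM or more, and log2(TPM + 1) correlated at 0.983 to 0.993 across genes between libraries of a group. The T cell markers used as a check (Cd3d, Cd3e, Cd3g, Cd4, Trac, Cd5, Cd28 and Lck) were all detected, with summed levels of 3218 to 3530 TPM in medium, 2608 to 2666 TPM in stimulated and 3152 to 3572 TPM in TRAIL-treated libraries. Transcripts of other spleen cells differed between the groups. The summed level of 8 B cell markers was 2077 to 2159 TPM in medium, 169 to 188 TPM in stimulated and 876 to 984 TPM in TRAIL-treated libraries, and 8 of 8 were called lower after stimulation, as were 19.5% of all genes tested. The 10 myeloid markers summed to 1546 to 1677, 78.9 to 88.1 and 1249 to 1402 TPM in the same order, and 10 of 10 were called lower after stimulation. The 7 erythroid markers tested summed to 2137 to 2585, 24.8 to 39.6 and 619 to 669 TPM, with Slc4a1 at the lowest value of the table in all stimulated libraries. The 5 NK cell markers summed to 118 to 148, 19.9 to 23.6 and 40.8 to 45.3 TPM, and the 2 CD8 T cell markers to 110 to 118, 94.2 to 105 and 46.9 to 49.4 TPM. These markers moved with the groups in all results that follow, and their part in those results was not tested. In bulk RNA, fewer cells of a type and less RNA per cell cannot be told apart.

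Stimulated replicate 1 stood apart from the other two stimulated libraries in a way that followed transcript length. Across the 45 genes, its deviation from the mean of the 3 stimulated libraries correlated with the log2 length of the longest coding transcript at r = -0.63, against 0.64 and 0.45 in replicates 2 and 3, and across all genes with a length at r = -0.65. These correlations are descriptions, since all genes share the libraries, and because deviations within a group sum to 0, the opposite signs in replicates 2 and 3 are in part set by replicate 1. In the other groups r over the 45 genes ran from -0.48 to 0.28 in medium and from -0.39 to 0.39 in TRAIL-treated libraries, with median deviations of the genes with long transcripts of -0.13 to 0.11. The 15 genes with the longest transcripts, of 3634 to 10012 nt, had a median deviation of -0.33 on the log2 scale in this library, and Polr1a deviated by -0.66. Counts and medians of the whole set, the counts of roles that change and the genes that this library moved most are therefore also given without it. Without it 5 calls among the 45 genes changed. Heatr1 (0.87 with it and 1.06 without it) and Utp20 were then also called after stimulation, Polr1a was also called lower with TRAIL, and Nop10 (-1.13 and -0.91) and Nip7 (-1.01 and -0.87) were no longer called lower with TRAIL.

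**Figure D1:**
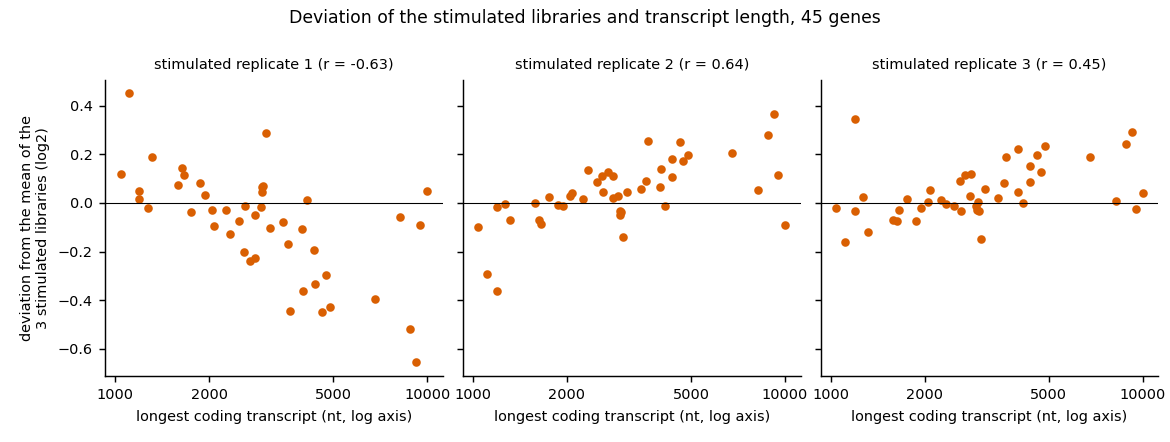
Deviation of each stimulated library from the mean of the 3 stimulated libraries (vertical axis, log2(TPM + 1)) against the length of the longest coding transcript (horizontal axis, nt, log scale), with 1 point for each of the 45 genes. Points fall with length in replicate 1 (r = -0.63) and rise with length in replicates 2 and 3 (r = 0.64 and 0.45).

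Promoters were searched for the E box CACGTG, the best known binding site of MYC with MAX, and for the variant CACGCG on both strands, because these genes moved together. RefSeq windows (GRCm38.p6) from 250 bases before to 50 after the start were found for 38 of the 45 genes, and none for Bop1, Rrp12, Npm1, Tcof1, Rrs1, Myc and Fbl. CACGTG was in 7 of 38 genes (18.4%), against 11.8% of 9934 genes tested and 8.09% of all 27025 genes with an entry. CACGCG was in 13 of 38 (34.2%), against 19.6% and 10.5%. The median GC content of the windows was 58.17% for the 38 genes and 60.33% for the genes tested. A match describes letters only and says nothing of binding in these cells. The 250 bases before the start are shown for the 3 genes with CACGTG upstream of the start, Rrn3, Utp18 and Nop2, and for Gar1 and Ncl, the genes with an entry that rose most after stimulation, in which neither motif was found. The last 2 were picked for their rise, so the rises of the 5 genes are not compared by motif. They are written 5′ to 3′ on the strand of the gene, with CACGTG in capitals, at -215 and -48 in Rrn3, -20 in Utp18 and -60 in Nop2 from the start.
Rrn3 (chr16:13780449-13780698, plus strand): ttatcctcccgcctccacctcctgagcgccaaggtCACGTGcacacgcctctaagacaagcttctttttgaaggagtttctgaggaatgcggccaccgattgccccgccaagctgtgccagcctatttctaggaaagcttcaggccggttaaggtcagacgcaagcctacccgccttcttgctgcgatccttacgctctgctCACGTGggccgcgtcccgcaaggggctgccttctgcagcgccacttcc
Utp18 (chr11:93885767-93886016, minus strand): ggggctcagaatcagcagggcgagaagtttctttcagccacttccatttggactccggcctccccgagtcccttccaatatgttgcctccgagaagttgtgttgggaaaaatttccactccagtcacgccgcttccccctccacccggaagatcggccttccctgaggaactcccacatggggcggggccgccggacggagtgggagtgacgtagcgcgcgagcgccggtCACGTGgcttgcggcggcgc
Nop2 (chr6:125131633-125131882, plus strand): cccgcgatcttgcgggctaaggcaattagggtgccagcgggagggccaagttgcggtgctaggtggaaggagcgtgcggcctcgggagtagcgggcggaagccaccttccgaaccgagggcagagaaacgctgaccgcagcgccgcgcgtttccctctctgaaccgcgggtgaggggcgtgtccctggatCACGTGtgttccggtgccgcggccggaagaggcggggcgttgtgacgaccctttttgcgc
Gar1 (chr3:129831397-129831646, minus strand): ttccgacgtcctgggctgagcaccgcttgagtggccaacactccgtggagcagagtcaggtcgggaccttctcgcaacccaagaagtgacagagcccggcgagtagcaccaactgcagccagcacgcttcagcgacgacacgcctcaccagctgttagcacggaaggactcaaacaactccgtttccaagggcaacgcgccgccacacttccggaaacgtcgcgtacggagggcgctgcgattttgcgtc
Ncl (chr1:86359456-86359705, minus strand): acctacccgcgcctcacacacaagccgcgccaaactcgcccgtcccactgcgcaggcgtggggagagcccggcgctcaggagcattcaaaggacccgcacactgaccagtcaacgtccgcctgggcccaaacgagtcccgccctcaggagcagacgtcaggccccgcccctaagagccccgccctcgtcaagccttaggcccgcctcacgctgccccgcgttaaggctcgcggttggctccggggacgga
The other genes with CACGTG in their window, Utp20, Pes1, Mybbp1a and Wdr43, had it after the start.

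Stimulation raised all 45 genes. Together they made up 4093, 3899 and 4027 TPM in the medium libraries and 11524, 11817 and 11691 TPM in the stimulated ones, which is 2.91 times the level in medium. Their share of all TPM was 0.390 to 0.409% in medium and 1.15 to 1.18% after stimulation, and the 2 ranges lie far apart. The mean of the stimulated libraries was 11754 TPM when replicate 1 was left out. With TRAIL the sums were 4423, 4404 and 4468 TPM, or 0.440 to 0.447%, which is 0.380 times the stimulated and 1.11 times the medium level. Npm1 and Ncl carried much of these sums, and without them the group means were 2823 TPM in medium, 7249 TPM after stimulation and 2875 TPM with TRAIL.

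**Figure D2:**
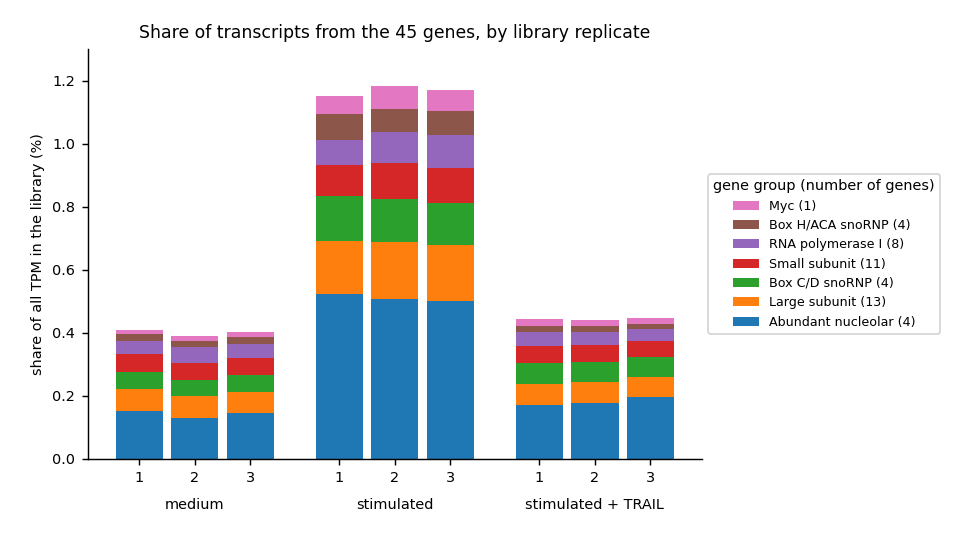
Share of all TPM (vertical axis, %) taken by the 45 genes in each of the 9 libraries, stacked by role. The 3 stimulated libraries reach 1.15 to 1.18%, against 0.390 to 0.409% in medium and 0.440 to 0.447% with TRAIL.

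Changes are log2 fold changes of TPM + 1 with their SE from limma, adjusted over all genes tested by the Benjamini-Hochberg method, and a gene was called when its adjusted p was under 0.05 and it changed by at least 1 on the log2 scale. After stimulation the 45 genes changed by 0.35 to 2.57, with a median of 1.32, against -0.15 over all genes tested. Of them 23 were called higher and none lower, where 12.4% of all genes tested were called higher. By the adjusted p alone 45 of 45 rose, against 28.8% of all genes, and in 44 the stimulated libraries lay above all medium libraries, against 29.9% of all genes. Without stimulated replicate 1 the median was 1.44 and 25 were called.

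With TRAIL added to the stimulus, the 45 genes changed by -2.78 to -0.42 against stimulated cells, with a median of -1.25 beside 0.011 over all genes. Here 31 were called lower, against 14.3% of all genes tested, and all 45 fell by the adjusted p alone, against 33.5%. In 44 the TRAIL-treated libraries lay below all stimulated libraries, against 34.9% of all genes. Without stimulated replicate 1 the median was -1.32 and 30 were called. Both comparisons use the same stimulated libraries, so their opposite signs are not independent of each other.

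Stimulated cells with TRAIL and cells in medium differed little in these genes. The changes ran from -0.56 to 0.65, with a median of -0.15 beside -0.18 over all genes, and 0 of 45 were called by limma, where 4.62% of all genes tested were called. At an unadjusted p under 0.05 limma gave 18 of the 45, 7 higher and 11 lower, where it gave 44.05% of all genes tested. By the adjusted p alone 5 were higher and 9 lower with TRAIL, against 8.03% and 24.6% of all genes, and the libraries did not overlap in 9 that were higher and 16 that were lower, against 12.4% and 38.2%. The balance of directions depended on the scaling. Median-of-ratios scaling and quantile normalization moved the median of all genes in this comparison by 0.17 and 0.14, after which 8 and 6 of the 45 were higher and 3 and 3 lower by the adjusted p. The 5 higher genes (Myc, Ncl, Nop56, Utp18 and Gnl3) and 3 of the lower ones (Noc4l, Nop16 and Noc3l) passed under all 3 scalings, and the other 6 lower genes (Polr1e, Dkc1, Wdr75, Bop1, Pes1 and Ddx18) passed only in TPM as deposited. Fbl, which did not pass in TPM as deposited, was higher under both other scalings, and Ddx21 and Nop58 after median-of-ratios scaling alone.

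**Figure D3:**
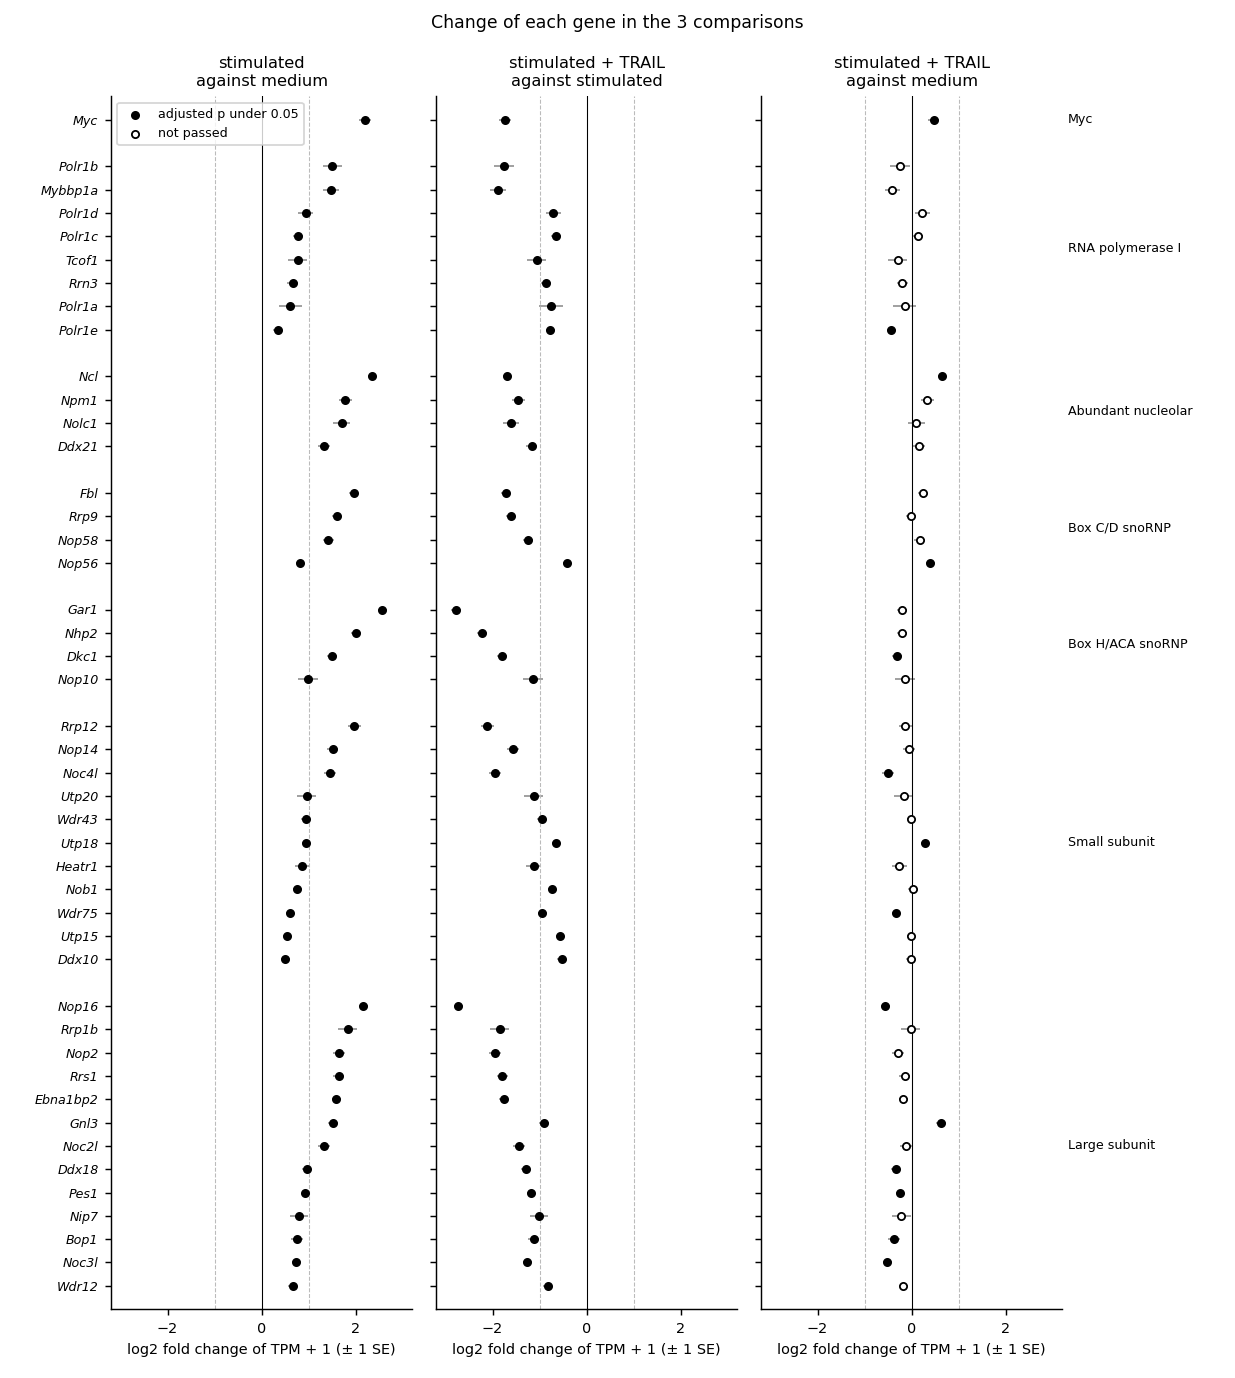
Log2 fold change of TPM + 1 (horizontal axis, with 1 SE) of each gene in the 3 comparisons, ordered by role and by the change after stimulation; filled points have an adjusted p under 0.05 and dashed lines mark a change of 1. All 45 points lie above 0 after stimulation and below 0 when TRAIL is added, and in the last panel all lie between -0.56 and 0.65.

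Myc (ENSMUSG00000022346, chr15:61985391-61990374, plus strand), the transcription factor of the set, was at 124, 149 and 152 TPM in medium, 596, 715 and 650 TPM in stimulated and 223, 185 and 181 TPM in TRAIL-treated libraries. The groups did not overlap, and the TRAIL-treated libraries lay between the other two but close to medium. Myc rose by 2.20 ± 0.12 after stimulation (limma, adjusted p = 1.01e-07) and changed by -1.73 ± 0.12 with TRAIL (adjusted p = 6.3e-07). It stayed 0.47 ± 0.12 above medium with TRAIL (limma, adjusted p = 0.0151). This last difference passed in 7 of 9 limma fits that left out a library. It was 0.38 without medium replicate 1 (limma, adjusted p = 0.0548) and 0.37 without TRAIL-treated replicate 1 (limma, adjusted p = 0.05).

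The 8 genes of rRNA transcription had the smallest group median after stimulation, 0.77 with 2 called, and a median of -0.82 with 3 called when TRAIL was added. Without stimulated replicate 1 these medians were 0.93 and -1.02, with 2 and 4 called. Polr1b (ENSMUSG00000027395, chr2:129100995-129126594, plus strand), which encodes a catalytic subunit of RNA polymerase I, was at 22.4, 29.3 and 23.8 TPM in medium, 56.5, 80.5 and 85.3 TPM in stimulated and 27.5, 20.8 and 15.6 TPM in TRAIL-treated libraries. All stimulated libraries lay above the others, and the medium and TRAIL-treated libraries overlapped. Polr1b rose by 1.51 ± 0.21 (limma, adjusted p = 1.14e-04) and changed by -1.76 ± 0.21 with TRAIL (adjusted p = 3.74e-05). Mybbp1a (ENSMUSG00000040463, chr11:72441355-72451768, plus strand), a MYB-binding protein of the nucleolus, was at 92.8, 123 and 97.98 TPM in medium, 230, 329 and 322 TPM in stimulated and 87.0, 79.9 and 67.5 TPM in TRAIL-treated libraries. Its TRAIL-treated libraries lay below all medium libraries, but the difference of -0.41 ± 0.16 did not pass in limma (adjusted p = 0.0807). Polr1e (ENSMUSG00000028318, chr4:45018583-45036565, plus strand), a subunit specific to this polymerase, had the smallest rise of all 45 genes in TPM as deposited. It was at 21.8, 21.1 and 22.4 TPM in medium, 29.4, 27.3 and 27.3 TPM in stimulated and 15.3, 17.4 and 15.1 TPM in TRAIL-treated libraries, with no overlap between groups. The rise was 0.35 ± 0.10 (limma, adjusted p = 0.00824), and the difference between TRAIL-treated and medium libraries was -0.43 ± 0.10 (adjusted p = 0.00783), which did not pass after median-of-ratios scaling (-0.25, adjusted p = 0.112).

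The remaining polymerase I genes were Polr1a, Polr1c, Polr1d, Rrn3 and Tcof1, with rises of 0.61 to 0.94. Polr1a, the largest subunit, was the only gene of the 45 whose libraries overlapped between groups after stimulation, at 27.4, 35.4 and 28.2 TPM in medium and 29.2, 60.2 and 57.2 TPM in stimulated libraries. The low value is that of stimulated replicate 1, the library that deviated with transcript length. The rise of Polr1a was 0.61 ± 0.25 with that library and 0.94 ± 0.15 without it (limma, adjusted p = 0.0486 and 3.35e-04). It did not pass when any other library but medium replicate 2 was left out (limma, adjusted p = 0.0572 to 0.165), so of the 45 rises this was the least secure. With TRAIL it changed by -0.76 against stimulated cells, or by -1.09 without stimulated replicate 1, and this did not pass without stimulated replicates 2 or 3 or TRAIL-treated replicate 3 (limma, adjusted p = 0.0716 to 0.0754). Polr1c and Polr1d are subunits that RNA polymerase I shares with RNA polymerase III, Rrn3 is the initiation factor that brings the polymerase to the rRNA promoter, and Tcof1 encodes treacle, a nucleolar phosphoprotein that aids rRNA transcription.

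The 4 genes of abundant nucleolar proteins were all called higher after stimulation, with a median of 1.74, and all called lower with TRAIL, with a median of -1.53. Npm1 (ENSMUSG00000057113, chr11:33152287-33163206, minus strand), which encodes the histone and ribosome chaperone nucleophosmin, had the highest levels of the set. It was at 1082, 814 and 997 TPM in medium, 3651, 3141 and 3134 TPM in stimulated and 1101, 1167 and 1371 TPM in TRAIL-treated libraries. The lowest TRAIL-treated value was just above the highest medium value, and that difference of 0.33 ± 0.13 did not pass in limma (adjusted p = 0.0817). Ncl (ENSMUSG00000026234, chr1:86344719-86359400, minus strand), whose product nucleolin binds nascent pre-rRNA, was at 213, 232 and 211 TPM in medium, 1074, 1160 and 1125 TPM in stimulated and 343, 340 and 346 TPM in TRAIL-treated libraries. The 3 groups were far apart relative to their spread, with means of 219 ± 11.4, 1120 ± 42.8 and 343 ± 2.896 TPM (SD, n = 3). Ncl rose by 2.35 ± 0.08 (limma, adjusted p = 4.03e-09), and with TRAIL it stayed 0.65 ± 0.08 above medium (adjusted p = 3.68e-04), the largest such excess among the 45 genes in TPM as deposited. Ddx21 (ENSMUSG00000020075, chr10:62580251-62602281, minus strand), a nucleolar RNA helicase, was at 132, 142 and 127 TPM in medium, 272, 377 and 365 TPM in stimulated and 149, 151 and 144 TPM in TRAIL-treated libraries. It rose by 1.32 ± 0.12 and changed by -1.17 ± 0.12 with TRAIL (limma, adjusted p = 5.5e-06 and 1.41e-05). Nolc1, a phosphoprotein that accompanies snoRNPs, rose by 1.70 ± 0.18 and changed by -1.61 ± 0.18.

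Among the box C/D proteins, Fbl (ENSMUSG00000046865, chr7:28169710-28179269, plus strand), the methyltransferase fibrillarin, was at 143, 176 and 164 TPM in medium, 648, 618 and 612 TPM in stimulated and 191, 191 and 186 TPM in TRAIL-treated libraries. The stimulated libraries were far above all others, and the TRAIL-treated ones lay above medium by less than the medium libraries differed from each other. Fbl rose by 1.96 ± 0.09 and changed by -1.72 ± 0.09 with TRAIL (limma, adjusted p = 3.57e-08 and 1.06e-07). Its excess over medium with TRAIL was 0.24 ± 0.09 and did not pass (limma, adjusted p = 0.0748). It passed at 0.43 after median-of-ratios scaling and at 0.29 after quantile normalization (limma, adjusted p = 0.0141 and 0.0321). Nop56 (ENSMUSG00000027405, chr2:130274430-130279313, plus strand), a scaffold protein of the same particle, was at 297, 253 and 286 TPM in medium, 520, 488 and 466 TPM in stimulated and 364, 369 and 367 TPM in TRAIL-treated libraries. Its TRAIL-treated libraries fell in the gap between the other groups. It had the smallest change with TRAIL of all 45 genes, -0.42 ± 0.09 (limma, adjusted p = 0.00194), and remained 0.40 ± 0.09 above medium (adjusted p = 0.00865). The related scaffold gene Nop58 rose by 1.42 ± 0.11 and Rrp9, whose product binds the U3 small nucleolar RNA, by 1.60 ± 0.10. In TPM as deposited both returned to within 0.17 of medium with TRAIL, without passing the test. After median-of-ratios scaling Nop58 was 0.36 above medium (limma, adjusted p = 0.0488), which did not pass after quantile normalization (adjusted p = 0.0582).

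The 4 box H/ACA proteins gave the lowest group median when TRAIL was added, -2.01, and 4 of 4 were called lower, or 3 of 4 without stimulated replicate 1. Gar1 (ENSMUSG00000028010, chr3:129824912-129831396, minus strand), a core protein of the particle, was at 31.3, 37.7 and 31.7 TPM in medium, 201, 203 and 207 TPM in stimulated and 30.7, 29.9 and 25.98 TPM in TRAIL-treated libraries. Medium and TRAIL-treated libraries were adjacent without overlap, and the stimulated libraries were several times higher and close together. Gar1 had the largest rise of the set, 2.57 ± 0.10, and the largest change with TRAIL, -2.78 ± 0.10 (limma, adjusted p = 1.12e-08 and 8.38e-09). Nhp2 (ENSMUSG00000001056, chr11:51619735-51623714, plus strand), another core protein, was at 71.9, 58.6 and 66.4 TPM in medium, 290, 249.2 and 263 TPM in stimulated and 53.5, 58.3 and 57.9 TPM in TRAIL-treated libraries. Dkc1 (ENSMUSG00000031403, chrX:75095854-75109777, plus strand), the pseudouridine synthase dyskerin, was at 70.0, 80.2 and 77.3 TPM in medium, 208, 218 and 219 TPM in stimulated and 69.4, 60.4 and 53.5 TPM in TRAIL-treated libraries. In both genes the TRAIL-treated libraries lay just below all medium libraries. The difference was -0.21 ± 0.10 for Nhp2 (limma, adjusted p = 0.149) and -0.31 ± 0.11 for Dkc1 (adjusted p = 0.0482), and the latter did not pass without any of the medium libraries, stimulated replicates 2 or 3 or TRAIL-treated replicates 2 or 3 (limma, adjusted p = 0.0516 to 0.159), nor after median-of-ratios scaling (-0.13, adjusted p = 0.288). Nop10 (ENSMUSG00000027133, chr2:112261926-112263269, plus strand), the smallest protein of the particle, was at 46.4, 31.7 and 52.5 TPM in medium, 117, 69.6 and 76.4 TPM in stimulated and 35.7, 39.1 and 40.4 TPM in TRAIL-treated libraries. Its libraries scattered most within the stimulated group, with replicate 1 the highest. The rise of 0.99 ± 0.22 became 0.76 ± 0.18 without that replicate (limma, adjusted p = 0.00219 and 0.00418).

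The 11 small-subunit factors rose with a median of 0.94, of which 3 were called, and changed with TRAIL by a median of -0.95, of which 5 were called. Leaving out stimulated replicate 1 gave medians of 0.98 and -0.99, with 5 called in each. Rrp12 (ENSMUSG00000035049, chr19:41862851-41896173, minus strand), needed for maturation and export of pre-ribosomes, was at 14.95, 20.6 and 16.4 TPM in medium, 61.4, 75.8 and 74.6 TPM in stimulated and 16.8, 15.8 and 14.1 TPM in TRAIL-treated libraries. It had the largest changes of this group, 1.97 ± 0.14 after stimulation and -2.11 ± 0.14 with TRAIL (limma, adjusted p = 6.01e-07 and 4.03e-07), and its medium and TRAIL-treated libraries overlapped. Wdr43 (ENSMUSG00000041057, chr17:71615895-71659031, plus strand), a subunit of the small-subunit processome that links it to rRNA transcription, had the highest mean of these genes in each group. It was at 137, 113 and 128 TPM in medium, 229, 252 and 245 TPM in stimulated and 127, 122 and 124 TPM in TRAIL-treated libraries. Wdr43 rose by 0.94 ± 0.09 and with TRAIL lay within -0.01 ± 0.09 of medium (limma, adjusted p = 8.69e-06 and 0.931). Ddx10 (ENSMUSG00000053289, chr9:53098635-53248053, minus strand), an RNA helicase of small-subunit processing, had the smallest rise of the group, 0.51 ± 0.10 (limma, adjusted p = 9.91e-04), from 64.7, 55.6 and 58.3 TPM in medium to 78.9, 87.7 and 88.4 TPM. With TRAIL it was at 62.3, 59.6 and 54.4 TPM, of which replicates 1 and 2 lay within the range of medium and replicate 3 just below it. Noc4l (ENSMUSG00000033294, chr5:110648418-110653417, minus strand), the partner of Nop14 in this pathway, was at 30.7, 36.4 and 28.4 TPM in medium, 82.7, 91.1 and 91.7 TPM in stimulated and 24.2, 23.0 and 19.3 TPM in TRAIL-treated libraries. All TRAIL-treated libraries were below medium, by -0.50 ± 0.12 (limma, adjusted p = 0.0118), and this passed in 9 of 9 fits that left out a library and was -0.32 after median-of-ratios scaling.

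The other small-subunit genes were the processome components Heatr1, Utp15, Utp18, Utp20, Wdr75 and Nop14 and the nuclease gene Nob1, whose product makes a late cut in the small-subunit rRNA. They rose by 0.54 to 1.51. Utp18 was 0.29 ± 0.08 above medium with TRAIL (limma, adjusted p = 0.0249), and median-of-ratios scaling gave 0.47. This difference did not pass without medium replicates 2 or 3 or TRAIL-treated replicate 2 (adjusted p = 0.0602 to 0.0939), nor with a replicate block (adjusted p = 0.0563). Wdr75 differed from medium by -0.33 ± 0.09 with TRAIL (limma, adjusted p = 0.0199), which did not pass without medium replicates 1 or 3 or TRAIL-treated replicates 2 or 3 (adjusted p = 0.0508 to 0.0698), nor after median-of-ratios scaling (-0.14, adjusted p = 0.348). Utp20, which has a transcript of 8821 nt, rose by 0.96 ± 0.20, or by 1.22 ± 0.12 without stimulated replicate 1, and so was called without that library.

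The 13 large-subunit factors rose with a median of 1.32, of which 7 were called, and changed with TRAIL by a median of -1.30, of which 11 were called, or 10 without stimulated replicate 1. Nop16 (ENSMUSG00000025869, chr13:54584185-54590090, minus strand), a pre-ribosomal protein of the large subunit, was at 22.5, 23.5 and 24.3 TPM in medium, 105, 110 and 109 TPM in stimulated and 15.8, 16.8 and 14.04 TPM in TRAIL-treated libraries. It rose by 2.16 ± 0.09 and changed by -2.73 ± 0.09 with TRAIL (limma, adjusted p = 1.9e-08 and 5.34e-09). The TRAIL-treated libraries were below all medium libraries, by -0.56 ± 0.09 (limma, adjusted p = 0.00188), the lowest such value among the 45 genes in TPM as deposited. Gnl3 (ENSMUSG00000042354, chr14:31012433-31019152, minus strand), the GTPase nucleostemin, went the other way. It was at 116, 90.9 and 97.5 TPM in medium, 298, 289 and 286 TPM in stimulated and 147, 149 and 169 TPM in TRAIL-treated libraries. Gnl3 rose by 1.52 ± 0.11 (limma, adjusted p = 5.9e-07) and with TRAIL stayed 0.61 ± 0.11 above medium (adjusted p = 0.00223), with no overlap. Noc2l (ENSMUSG00000095567, chr4:156235919-156247616, plus strand), which pairs with the Noc1 and Noc3 proteins in pre-ribosome transport, had the highest mean of these genes over all 9 libraries, though Gnl3 was higher with TRAIL. It was at 122, 145 and 124 TPM in medium, 279, 353 and 354 TPM in stimulated and 136, 119 and 108 TPM in TRAIL-treated libraries. Medium and TRAIL-treated libraries of Noc2l overlapped, and the rise was 1.32 ± 0.13.

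Bop1, Pes1 and Wdr12 encode the PeBoW complex, which is needed for processing of the large-subunit rRNA. Wdr12 (ENSMUSG00000026019, chr1:60069785-60098645, minus strand) was at 18.2, 15.9 and 15.8 TPM in medium, 27.7, 25.1 and 27.5 TPM in stimulated and 15.6, 14.2 and 14.04 TPM in TRAIL-treated libraries. It had the smallest rise of the large-subunit genes, 0.66 ± 0.10 (limma, adjusted p = 2.23e-04), with stimulated libraries above all others. Pes1 rose by 0.93 ± 0.08 and Bop1 by 0.75 ± 0.12, and none of the 3 was called. With TRAIL all 3 changed by -1.19 to -0.83 against stimulated cells. Against medium, Pes1 differed by -0.26 ± 0.08 and Bop1 by -0.38 ± 0.12 (limma, adjusted p = 0.0322 and 0.0371), and neither passed after median-of-ratios scaling (adjusted p = 0.575 and 0.148). Either difference was also lost when single libraries were left out, 7 of them for Pes1 (limma, adjusted p = 0.0523 to 0.103) and 5 for Bop1 (adjusted p = 0.0557 to 0.129). The other large-subunit genes were Nop2, an rRNA methyltransferase, Rrs1, Ebna1bp2, Nip7, Ddx18, Rrp1b and Noc3l, with rises of 0.74 to 1.83. Noc3l differed from medium by -0.52 ± 0.10 with TRAIL (limma, adjusted p = 0.00407), and this passed in 9 of 9 fits that left out a library and was -0.34 after median-of-ratios scaling.

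**Figure D4:**
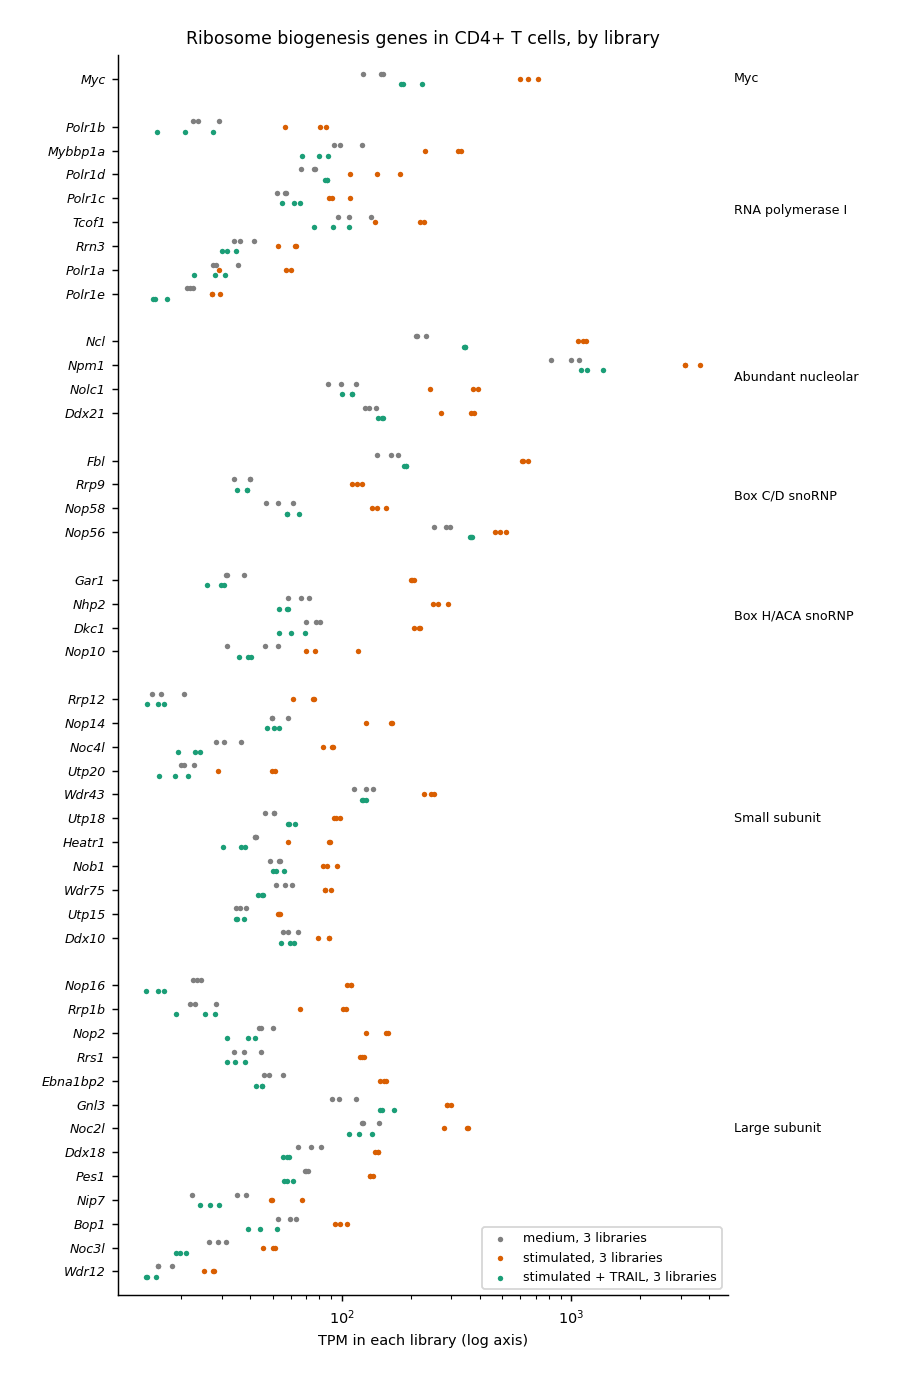
TPM (horizontal axis, log scale) of each of the 45 genes in each of the 9 libraries, ordered by role. In every gene but Polr1a the 3 stimulated points lie to the right of all other points. The medium and TRAIL-treated points differ by at most 0.65 between group means on the log2(TPM + 1) scale, with the largest gap in Ncl.

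Of 112 further ribosome biogenesis genes, 102 had a value above 0 after stimulation (median 0.68), and by the adjusted p 86 rose and 4 fell. With TRAIL added, 101 of 112 were below 0 (median -0.83), and 86 fell and 2 rose. Called by size as well were 29 higher and none lower after stimulation, and 44 lower and none higher with TRAIL, against 12.4% higher and 14.3% lower of all genes tested. Without stimulated replicate 1, 32 were called higher after stimulation, and 48 were called lower and 1 higher with TRAIL. The last was Exosc6, a subunit gene of the RNA exosome, which was at 2.11, 0.0013 and 0.0012 TPM in stimulated and 1.03, 1.42 and 1.76 TPM in TRAIL-treated libraries. Without replicate 1 its stimulated level is practically 0 and the pseudocount sets the size of the change, so no fold is given. Against medium, 0 of 112 were called with TRAIL (median -0.15), where 4.62% of all genes tested were called, and limma gave 46 at an unadjusted p under 0.05 (41.07%, against 44.05% of all genes). In each list the lowest values with TRAIL were those of the polymerase I gene Cd3eap (-1.81 ± 0.14), the small-subunit genes Pno1 (-1.68 ± 0.12) and Bysl (-1.62 ± 0.13), the large-subunit genes Rpf2 (-1.82 ± 0.15) and Rsl24d1 (-1.76 ± 0.14), and among exosome and RNase MRP genes Pop1 (-2.29 ± 0.15) and Exosc4 (-1.67 ± 0.15). The 9 further polymerase I genes had medians of -0.06 after stimulation and 0.03 with TRAIL, and Cd3eap was the only one called in either. Cytosolic ribosomal proteins, the structural parts of the particle that these factors build, had medians nearer to 0 after stimulation and when TRAIL was added. Their 77 genes had a median of 0.34 after stimulation with 5 called higher, and of 0.03 when TRAIL was added with 1 called lower. With TRAIL against medium, however, their median was 0.39 and 77 of 77 were above 0, beside a median of -0.18 over all genes tested. By the adjusted p 23 of them were higher in that comparison, against 8.03% of all genes. Mitochondrial ribosomal proteins, which form the separate ribosome of mitochondria, had medians of 0.87 and -1.05 over 78 genes, with 28 called higher and 44 called lower. Without stimulated replicate 1 the medians were 0.21 and 0.20 for the cytosolic list, with 4 called higher after stimulation and with 2 higher and 1 lower when TRAIL was added. For the mitochondrial list they were 0.79 and -0.997, with 23 and 39 called. These differences between lists are descriptions and were not tested.

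**Figure D5:**
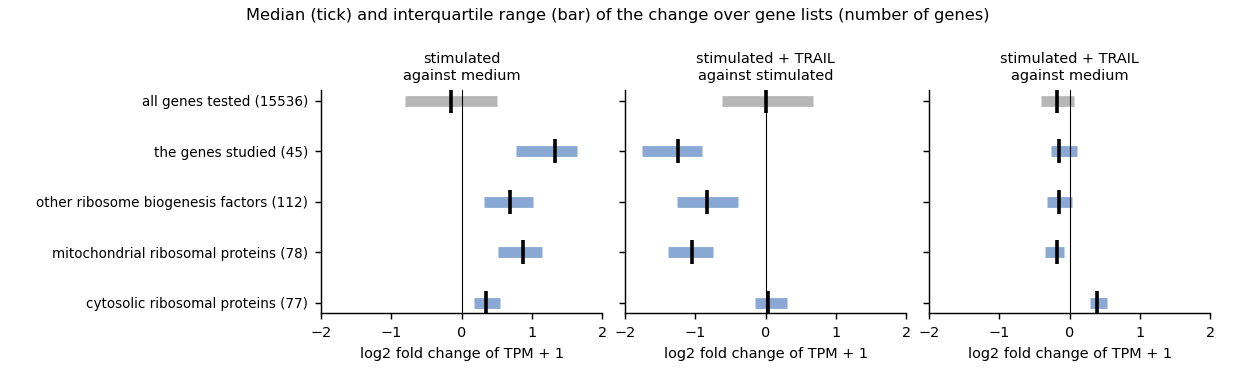
Median (tick) and interquartile range (bar) of the log2 fold change of TPM + 1 over gene lists, in the 3 comparisons. The median of the 45 genes is 1.32, -1.25 and -0.15 from left to right, against 0.34, 0.03 and 0.39 for cytosolic ribosomal proteins and -0.15, 0.01 and -0.18 for all genes tested.

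Partners and antagonists of MYC did not move as a block. Max, the obligate partner of MYC, was at 148, 192 and 162 TPM in medium, 173, 198 and 196 TPM in stimulated and 168, 159 and 137 TPM in TRAIL-treated libraries, with the medium libraries overlapping both other groups and no passing difference with all libraries. Its change with TRAIL without stimulated replicate 1 was -0.35 ± 0.12 (limma, adjusted p = 0.0295). Mxd4, an antagonist that competes with MYC for MAX, ran opposite to Myc at 76.7, 90.5 and 82.9 TPM in medium, 8.43, 10.4 and 11.003 TPM in stimulated and 80.2, 78.9 and 70.5 TPM in TRAIL-treated libraries. It changed by -2.95 ± 0.12 after stimulation and by 2.83 ± 0.12 with TRAIL (limma, adjusted p = 1.03e-08 and 1.65e-08). Mxd1, an antagonist of the same family, rose by 1.77 ± 0.13 after stimulation (limma, adjusted p = 9.06e-07) and kept that level with TRAIL, at 79.9, 106 and 94.6 TPM in stimulated and 85.5, 95.7 and 93.3 TPM in TRAIL-treated libraries against 24.1, 31.0 and 24.9 TPM in medium. With TRAIL it was 1.75 ± 0.13 above medium (limma, adjusted p = 1.36e-05). Mnt, a further antagonist, was at 26.2, 35.7 and 30.0 TPM in medium, 21.9, 37.3 and 34.6 TPM in stimulated and 49.5, 51.8 and 50.02 TPM in TRAIL-treated libraries. It was 0.71 ± 0.18 higher with TRAIL than in stimulated cells (limma, adjusted p = 0.0062), or 0.48 ± 0.12 without stimulated replicate 1, and 0.71 ± 0.18 above medium (adjusted p = 0.0157). Of the other members of the network, Mycl was at 2.41, 2.79 and 3.62 TPM in medium, 0.144, 0.0898 and 0.238 TPM in stimulated and 1.48, 1.66 and 1.22 TPM in TRAIL-treated libraries. It fell by 1.76 after stimulation and was 1.08 higher with TRAIL than in stimulated cells (limma, adjusted p = 2.32e-06 and 8.58e-05), and at such levels the pseudocount of 1 makes these values smaller than the change in TPM. After stimulation Mxd3 and Mlx changed by -0.68 and -0.60, Mlxip by -0.81, or by -0.47 without stimulated replicate 1, and Mxi1 and Mycn by 0.47 and 0.42.

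In their genomic arrangement, the 45 genes lay on 19 chromosomes, and 44 had the locus that GENCODE M21 gives on GRCm38, all but Noc2l. GENCODE M21 places 19 small nucleolar RNA genes inside 6 of them, 5 in Nop56, 4 in Nop58, 3 each in Ncl, Wdr43 and Gnl3 and 1 in Dkc1. The 6 hosts thus include 3 of the 5 genes that were above medium with TRAIL by the adjusted p, Ncl, Nop56 and Gnl3, and also Dkc1, which was below. The remaining hosts, Nop58 and Wdr43, did not pass against medium (limma, adjusted p = 0.282 and 0.931). Whether host genes differ from other genes was not tested. Exons of 15 of the 45 genes overlap an exon of a gene on the opposite strand, among them Mybbp1a, Nop56, Dkc1, Nhp2, Wdr43, Wdr12, Noc2l and Gnl3. The strand setting of the quantification is not stated, so reads of such pairs may not be separable and the values of these genes are uncertain to that extent.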

How the data were processed

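RNA from 9 libraries of murine CD4+ T cells, in 3 groups of 3 taken from the sample labels, was sequenced by the authors as paired-end reads. The deposited table holds TPM per gene, made by the authors. According to the submitters' processing notes and the study's methods, reads were trimmed with Trimmomatic 0.36 and aligned with HISAT2 2.1.0; SAMtools 1.2 and StringTie 2.1.2 are listed without a role, and the methods name DESeq2 for scaling counts per feature, which are not the TPM used here. The notes list GRCh38 and the methods GRCm38, and the loci in the table are those of mouse GRCm38. TPM keeps no depth, and because it is a share, transcripts that rise take away from the rest.

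All later steps started from TPM. Genes that reached 1 TPM in 3 or more libraries were fitted on log2(TPM + 1) in R 4.3.3 with limma 3.58.1 (lmFit, eBayes with a trend), all 9 libraries in 1 fit without a replicate block, with Benjamini-Hochberg adjustment over the 15536 genes tested. A gene was called at an adjusted p under 0.05 with a change of 1 or more, up or down, on the log2 scale. A count model was not used, since the values are not counts. A run of the fit on simulated data used independent noise and few changed genes. It did not imitate the length-related deviation of stimulated replicate 1 and is not used as support here. An exact permutation test of 3 libraries against 3 cannot go below p = 0.1.

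The 45 genes, the comparison lists and the alternatives were chosen with earlier results of these data known. Per-library values were printed for Myc and, in each other role, for the most abundant gene by the mean of all libraries, the genes with the largest and smallest rise after stimulation and the gene that differed most between TRAIL-treated and medium libraries; Polr1a, Heatr1, Utp18, Utp20, Wdr75, Nip7, Noc3l, Exosc6 and the remaining PeBoW genes were described after their values were seen. Alternatives varied the pseudocount (0.1 or 5), the scaling, the low-value filter, the fold threshold, the replicate block, the trend of the variance and which libraries were fitted. Leaving stimulated replicate 1 out for the ribosomal protein lists and the Myc network was an alternative chosen after seeing the data. The values of 1 marker gene are not reported here. Transcript lengths and snoRNA genes came from GENCODE M21 and promoters from RefSeq. Python 3.11.15 with pandas 2.3.3 and matplotlib 3.10.9 was used for tables and plots.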

Additional observations from a re-analysis of the deposited data

How the results depend on the processing

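The counts of the 45 genes called stayed within 1.5 times of 23 (stimulated against medium), 31 (TRAIL added) and 0 (TRAIL against medium) under every alternative run but the removal of the fold threshold. That removal gave 45, 45 and 14 (5 higher, 9 lower), of which the count with TRAIL added was still within 1.5 times. Median-of-ratios scaling gave medians of 1.42, -1.15 and 0.034 in the 3 comparisons and quantile normalization 1.22, -1.08 and 0.023, so that the median against medium turned positive with TRAIL. Quantile normalization moved the median of all genes after stimulation by 0.19. A pseudocount of 5 gave -1.15 with TRAIL added. Leaving out each library in turn gave medians of 1.24 to 1.44, -1.32 to -1.22 and -0.19 to -0.070, with the extreme value in both comparisons with stimulated cells when stimulated replicate 1 was left out. Calls ran from 23 to 26, from 29 to 31 and stayed at 0, and those of the 112 other genes from 29 to 32, from 42 to 49 and at 0. Summed levels were 3744 TPM in medium and 4730 TPM with TRAIL after median-of-ratios scaling, and 2823, 7249 and 2875 TPM without the 2 most abundant genes. The sources do not say whether the replicate numbers pair the libraries. Deviations correlated at -0.31 to 0.29 between same-numbered libraries of different groups and at -0.38 to 0.29 between others. These values cannot decide it, since deviations within a group sum to 0 and also followed transcript length. A replicate block gave the same 23, 31 and 0 calls, and 29, 44 and 0 calls in the other genes. By the adjusted p against medium it gave 4 higher and 6 lower in place of 5 and 9. Utp18, Dkc1, Bop1 and Pes1 did not pass with it (limma, adjusted p = 0.0563 to 0.0831). For the 21 genes with per-library values chosen by rule, refits were compared by direction and side of the adjusted p threshold, without the fold threshold. Both were kept in all 378 refits after stimulation and all 378 with TRAIL added. Against medium both were kept in 337 refits, 19 lost and 6 gained the adjusted p threshold, and 16 that had not passed changed sign. Calls, which also need the fold threshold, were less stable. Nop10 was no longer called lower with TRAIL when stimulated replicate 1 was left out (-1.13 with it and -0.91 without it). Among the other genes, Polr1a lost the adjusted p threshold in 7 fits that left out a library after stimulation (limma, adjusted p = 0.0572 to 0.165). With TRAIL added it did so in 3 (limma, adjusted p = 0.0716 to 0.0754). The cause of these shifts was not tested. The depth of the libraries is unknown, which leaves counting error without a bound, and groups of 3 libraries were not tested for outliers.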

Other observations

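The ratio of transcripts of 2 subunits of a complex differed between groups in some pairs and overlapped in others. The ratio of Gar1 to Nop10, both box H/ACA core proteins, ranged from 0.604 to 1.19 over the medium libraries, from 1.71 to 2.92 over the stimulated ones and from 0.642 to 0.860 with TRAIL. For Dkc1 to Nop10 the ranges overlapped, at 1.47 to 2.53, 1.77 to 3.13 and 1.32 to 1.94. The ratio of Fbl to Nop56 in the box C/D particle lay at 0.481 to 0.695 without stimulus, at 1.25 to 1.31 after stimulation and at 0.508 to 0.524 with TRAIL, so Fbl transcripts outnumbered those of Nop56 in the stimulated libraries alone. Polr1b to Polr1a ran from 0.819 to 0.842 in the medium group, from 1.34 to 1.94 after stimulation and from 0.687 to 0.891 with TRAIL, with the highest value in stimulated replicate 1, in which Polr1a was low. The ratio of Bop1 to Wdr12 was 2.91 to 3.97 in medium, 3.39 to 4.19 after stimulation and 2.77 to 3.35 with TRAIL, so the medium range overlapped both others, which did not overlap each other. These ratios are of TPM and were not tested.

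Further genes of the Myc network were low in stimulated replicate 1. Mga was at 17.3 TPM there against 39.6 and 37.1 TPM in the other stimulated libraries, and Mlxip at 17.1 TPM against 37.3 and 34.4 TPM.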
